A study of Mus musculus with 13 samples.

Results

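H3K27me3 domains of mouse embryonic stem cells are described here by their borders and by the gaps inside them, in cells without and with tamoxifen. The 4 peak lists of this mark held 31723 merged regions, and the 4841 of them in which every list had a peak are the domains measured. All cells were of the J1 line, carried an inducible knockout of Setdb1 and were grown without feeder cells in medium with serum and leukaemia inhibitory factor. Untreated replicates 1 and 2 received no tamoxifen, and tamoxifen replicates 1 and 2 received it at 2.5 µM. Setdb1 ablation was induced in this way, and the labels name DMSO as the solvent control without saying which dish received it. The driver of the recombinase, the number of clones and the days of treatment were not stated in the labels. The series has 13 samples, and 8 of them have a peak list here.

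H3K27me3 is written by the Polycomb repressive complex that contains Ezh2. In embryonic stem cells it lies over promoters rich in CpG, many of them of silent developmental regulators. There the mark spreads from nucleation sites over neighbouring nucleosomes, so a domain can shrink from its borders or lose stretches inside. Setdb1 writes another repressive mark, trimethylation of histone H3 at lysine 9, and silences retroelements and many germline genes in these cells. Positions below count from 1 on mouse build mm9, and no gene was assigned to a region because no annotation of that build was used.

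In each domain the distance from the edge of the merged region to the outermost peak of a list is called the inset, on the left and on the right. Bases between the outermost peaks of a list that none of its peaks covers are the internal gap, and the number of separate peaks is the number of pieces. The width of a region is thus the sum of both insets, the internal gap and the covered bases. A larger inset with tamoxifen means that the domain ended further in, and a larger gap or more pieces means that it was more divided inside.

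The lists hold positions alone, so depth is unknown and a peak has no height. Replicate 1 of each treatment was called with MACS2 2.0.10 and replicate 2 with MACS2 2.1.0. Within a version the lists had nearly the same resolution inside domains, since no peaks of a list lay closer than 585 bp in both replicate 1 lists, and than 721 bp untreated and 729 bp with tamoxifen in the replicate 2 lists. The lists differed more in narrow peaks. Peaks under 500 bp made up 4.89% of the untreated replicate 1 list, against 34.2% of tamoxifen replicate 1, 32.5% of untreated replicate 2 and 35.3% of tamoxifen replicate 2. Untreated replicate 1 therefore stood apart, with 7041 peaks, a median width of 2511 bp and 82.8% of its peaks inside the 4841 domains. In the other 3 lists 28.1% to 50.9% of the peaks lay there. The part of these differences in the results was not tested. Whether replicates were separate cultures is not stated, so the p-values below refer to the spread among these 4 lists, which may be technical.

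The first question was whether domains ended further in with tamoxifen. In the replicate 1 lists the mean left inset was 476 bp untreated and 696 bp with tamoxifen, and the mean right inset was 479 and 708 bp. In the replicate 2 lists the left inset was 564 and 582 bp, and the right inset 571 and 582 bp. The tamoxifen means thus lay above both untreated means on each side, but by 220 and 229 bp in replicate 1 and by 17.7 and 11.1 bp in replicate 2. The sign in replicate 2 depended on the setting. Its left and right differences were 26.2 and 7.90 bp with peaks under 500 bp dropped. They were -4.51 and -6.98 bp with regions merged over gaps of up to 1 kb. With gaps of up to 1 kb closed in every list they were 14.0 and -12.8 bp. Group means were 520 ± 62.4 and 639 ± 80.6 bp on the left and 525 ± 65.0 and 645 ± 89.1 bp on the right (SD, n = 2 lists each). For either side the two-sided exact permutation p was 0.33, the smallest that 2 lists against 2 allow, so no comparison of these 4 lists can reach 0.05. With Benjamini-Hochberg adjustment for 7 tested values, that exact p became 0.583. Medians over domains did not separate the treatments. On the left they were 150 and 512 bp in replicate 1 and 385 and 346 bp in replicate 2, and on the right 170 and 513 bp and 366 and 336 bp (exact permutation p = 0.667). Against 119 bp on the left and 120 bp on the right with all lists, the difference was 73.4 and 70.6 bp without untreated replicate 1 and 63.4 and 55.2 bp without tamoxifen replicate 1. It was 209 and 198 bp without untreated replicate 2, and 183 and 184 bp without tamoxifen replicate 2, so each omission moved it by over 1.5 times. For each omission regions were merged anew from the remaining lists, giving 6371, 4989, 5035 and 5186 regions in the order above. The changed set of regions thus also enters these values. In chromatin from many cells, a border that moved in some cells cannot be told apart from less mark in all of them.

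**Figure D1:**
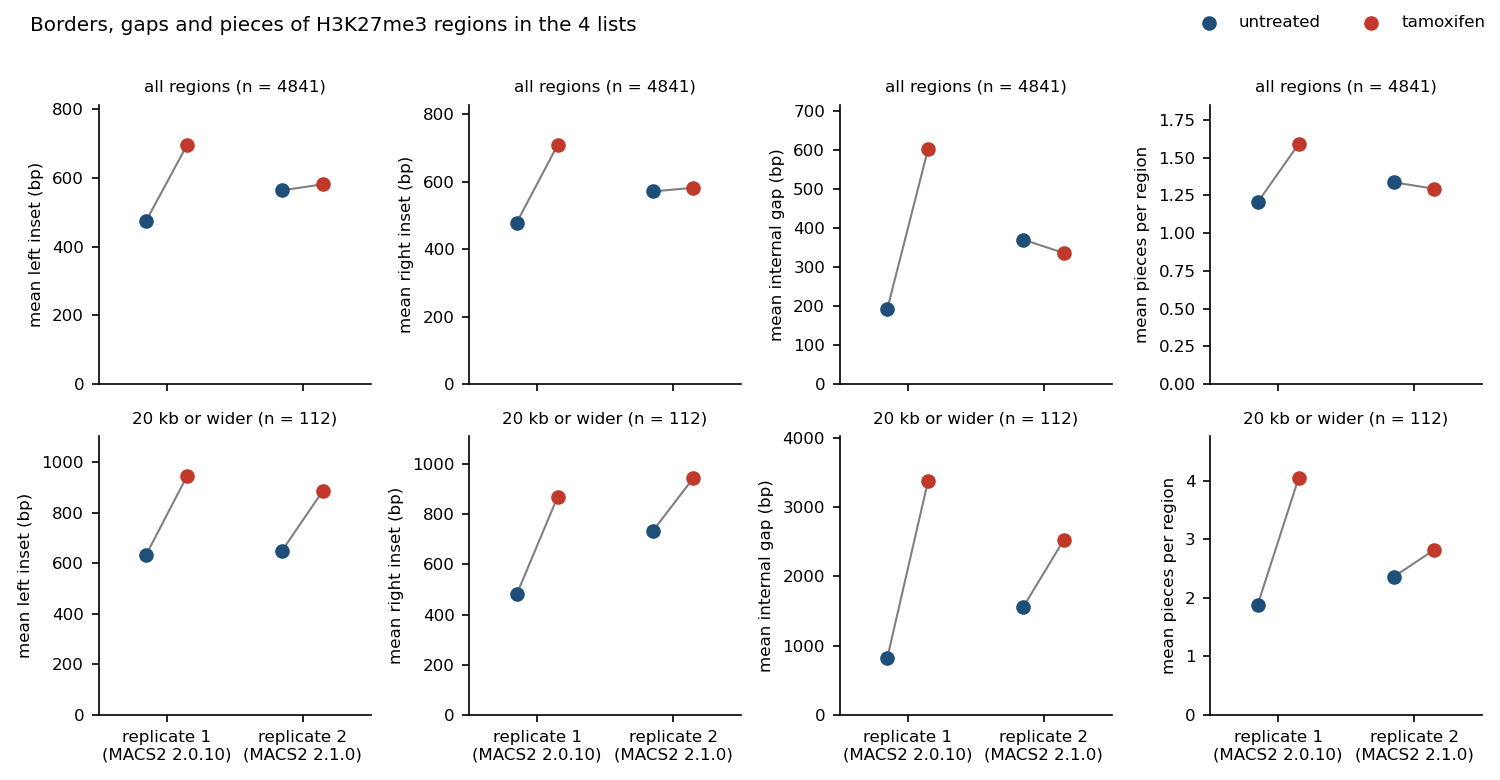
Mean left inset, right inset and internal gap in bp and mean number of pieces per region (vertical axes from 0) in the untreated (blue) and tamoxifen (red) list of each replicate, joined by a line; each point is 1 list. In all 4841 regions (top row) the replicate 2 lists lie close together, while in the 112 regions of 20 kb or wider (bottom row) both replicates have the tamoxifen list above the untreated one in every panel.

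Single domains moved far more than these means. In the replicate 1 lists the median left border lay 183 bp further in with tamoxifen, and the middle 50% of shifts ran from -103 to 643 bp. In the replicate 2 lists the median was -9 bp and the middle 50% ran from -387 to 406 bp. Right borders had nearly the same distribution, with medians of 176 and -9 bp. The replicate 1 shift was therefore a skew of the whole distribution inward, and the replicate 2 shifts spread about evenly in both directions.

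**Figure D2:**
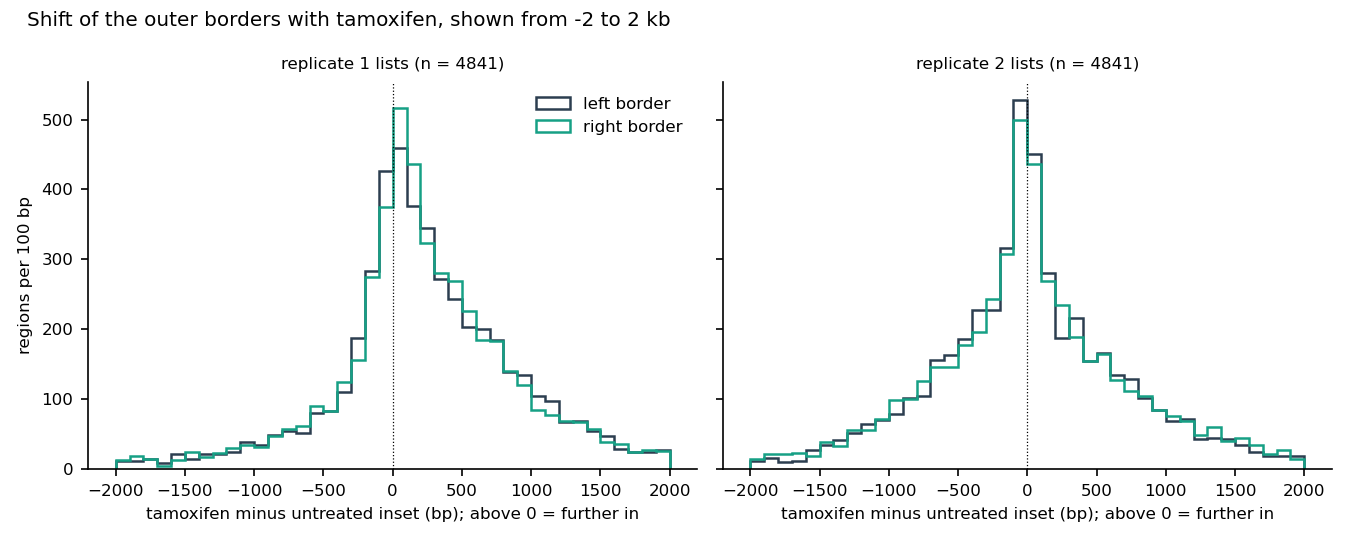
Number of domains per 100 bp of border shift (vertical axis) against the tamoxifen minus untreated inset in bp (horizontal axis, above 0 means further in with tamoxifen), for left and right borders of 4841 domains. Replicate 1 lists (left panel) lean to the right of 0, with medians of 183 and 176 bp, and replicate 2 lists (right panel) are centred near 0, with medians of -9 bp; shifts beyond 2 kb are not drawn.

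Both borders of a domain were then read together, counting a border as shifted only beyond 200 bp. In the replicate 1 lists 1148 domains were contracted, with both borders further in with tamoxifen, which is 23.7% of all domains, and 176 were expanded, which is 3.64%. In the replicate 2 lists 581 were contracted (12.0%) and 567 expanded (11.7%), a near balance. Another 876 domains in replicate 1 (18.1%) and 1100 in replicate 2 (22.7%) were displaced. Their border lay further in on the left and further out on the right, or the reverse. Left and right shifts of the same domain were unrelated across the 4841 domains (Pearson r = -0.000842 in replicate 1 and -0.00275 in replicate 2, given as a description, since both borders come from the same lists). The domains contracted in both replicates numbered 162, which is 27.9% of those contracted in replicate 2, and another 122 were contracted in replicate 1 and expanded in replicate 2.

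At borders further in with tamoxifen, the outermost untreated peak mostly still overlapped a tamoxifen peak. Domains were kept only where every list had a peak, which limits how often a peak can be absent. Only 916 of the 4841 domains were in 2 or more pieces in untreated replicate 1, against 1982 in tamoxifen replicate 1. The shares of absent peaks below also depend on this, so they cannot show how borders moved. In replicate 1 the outermost untreated peak still overlapped a tamoxifen peak at 3154 of 3191 left borders and 3227 of 3273 right borders, and it was absent at 1.16% and 1.41%. In the opposite direction, where the untreated border lay further in, the outermost tamoxifen peak had no untreated counterpart at 15.0% of both left and right borders. In replicate 2 such absent outer peaks made up 7.63% and 9.02% of borders further in with tamoxifen and 5.44% and 6.12% of those further out. Tamoxifen replicate 1 thus carried outlying peaks that untreated replicate 1 lacked, beside the difference in peaks under 500 bp given above.

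The second question was whether domains were more divided inside. The mean internal gap per domain was 192 bp in untreated replicate 1 and 603 bp in tamoxifen replicate 1, and 371 and 337 bp in the replicate 2 lists. The groups overlapped, because untreated replicate 2 lay above tamoxifen replicate 2. Group means were 282 ± 126 and 470 ± 188 bp (SD, n = 2 lists each, two-sided exact permutation p = 0.667, the same after adjustment). The mean number of pieces per domain followed the same order, at 1.21 and 1.59 in replicate 1 and 1.34 and 1.29 in replicate 2 (exact permutation p = 0.667). Where every list had to cover 50% of a domain, 2501 were kept and both replicates had the higher tamoxifen value. The gap then differed by 404 and 25.8 bp and pieces by 0.400 and 0.00480, in replicates 1 and 2. In the other settings for peaks, gaps and merging the replicate 2 differences stayed negative. Domains in 2 or more pieces numbered 916 untreated and 1982 with tamoxifen in replicate 1, and 1300 and 1108 in replicate 2. Without tamoxifen replicate 1 the difference in gap length was 49.5 bp, and without untreated replicate 1 it was 66.1 bp, against 188 bp with all lists. The difference in pieces, 0.171 with all lists, was 0.0749 without untreated replicate 1, 0.0207 without tamoxifen replicate 1 and 0.286 without tamoxifen replicate 2. Values without a list are over regions merged anew from the remaining lists.

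Domains that were whole in untreated cells and broken with tamoxifen were counted against the reverse. In the replicate 1 lists 1215 domains were broken, which is 25.1% of all, and 149 were joined, which is 3.08%. In the replicate 2 lists 575 were broken (11.9%) and 767 joined (15.8%), so joining was the more frequent there. The domains in a single piece under both conditions numbered 2710 in replicate 1 and 2966 in replicate 2. Of the domains broken in replicate 2, 32.2% were also broken in replicate 1, against 25.1% of all domains, and 33.0% of those joined in replicate 2 were broken in replicate 1. The 185 domains broken in both replicates were outnumbered by 253 that were broken in replicate 1 and joined in replicate 2. When gaps of up to 1 kb were closed in every list and peaks under 500 bp dropped, 4265 domains were kept. Of these, 479 (11.2%) in replicate 1 and 263 (6.17%) in replicate 2 were broken, and 81 (1.90%) and 372 (8.72%) were joined.

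Most gaps were short, close to the smallest distance that each list resolves. The median gap inside domains was 781 bp in untreated replicate 1, 832 bp in tamoxifen replicate 1, 935 bp in untreated replicate 2 and 948 bp in tamoxifen replicate 2. Gaps under 1 kb made up 73.7%, 65.9%, 58.1% and 55.6% of them, in the same order. The lists therefore differed in the number of gaps more than in their length, with 990 and 2851 gaps in replicate 1 and 1629 and 1422 in replicate 2.

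Width divided the domains into those with and without a shift in both replicates. In domains of 2 to 5 kb, which are 47.2% of all, the summed insets were 785 and 1209 bp in replicate 1 but 1051 and 989 bp in replicate 2, so that replicate 2 pointed the other way. In domains of 5 to 10 kb the tamoxifen inset was larger in both replicates, at 1165 and 1699 bp and at 1303 and 1389 bp, while the gap was larger only in replicate 1. In those of 10 to 20 kb the insets were 1478 and 1853 bp and 1308 and 1568 bp, and the gaps 656 and 1870 bp and 1079 and 1061 bp. Of the 5 width classes, the 112 domains of 20 kb or wider formed the only one in which tamoxifen lists had both the larger inset and the longer gap in both replicates.

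**Figure D3:**
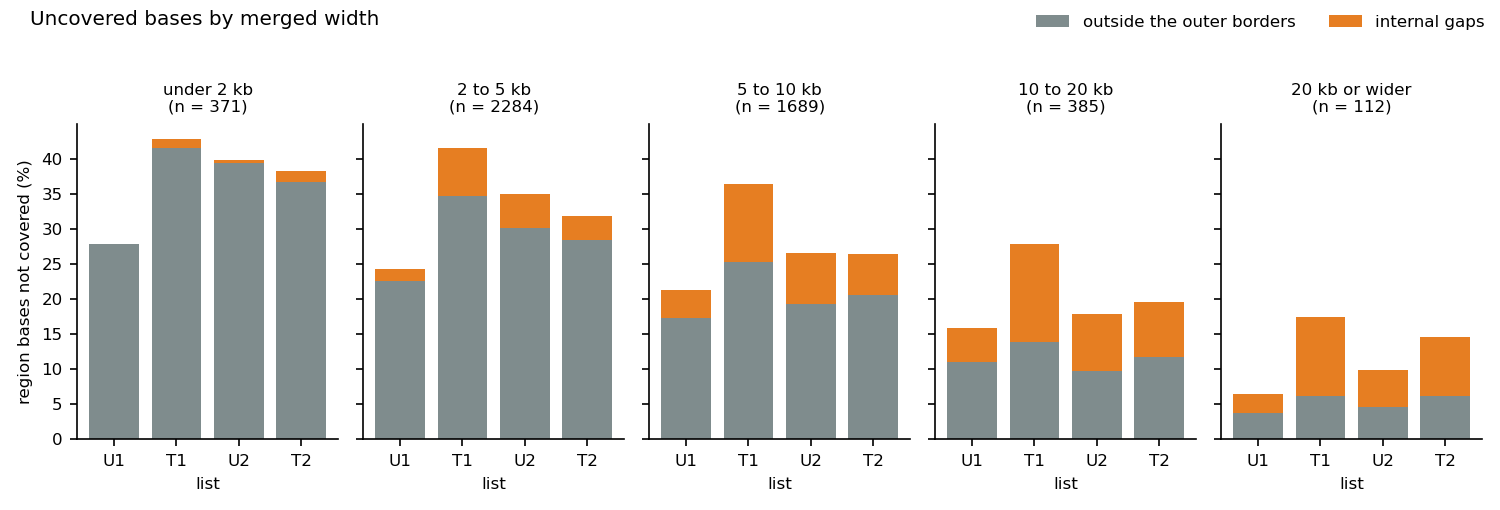
Percent of region bases not covered in each list (vertical axis) by merged width (panels, n regions above each), split into bases outside the outer borders (grey) and in internal gaps (orange); U1, T1, U2 and T2 are untreated and tamoxifen replicates 1 and 2. In regions of 20 kb or wider the internal part is 2.75% untreated and 11.3% with tamoxifen in replicate 1 and 5.22% and 8.49% in replicate 2, and the part outside the borders is 3.74% and 6.08%, and 4.64% and 6.14%.

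In the 112 domains of 20 kb or wider, tamoxifen lists had both larger insets and longer gaps. The mean left inset was 635 bp untreated and 946 bp with tamoxifen in replicate 1, and 651 and 888 bp in replicate 2. The mean right inset was 481 and 867 bp in replicate 1, and 731 and 943 bp in replicate 2. The summed inset was 1249 ± 189 bp untreated and 1822 ± 12.9 bp with tamoxifen, a difference of 573 bp (SD, n = 2 lists each, two-sided exact permutation p = 0.33, adjusted 0.583). It was -783 bp, over 205 regions, when gaps of up to 2 kb were closed in every list, and 18.6 bp, over 161 regions, when regions were merged over gaps of up to 1 kb. Without untreated replicate 2 it was 911 bp, over 103 regions merged anew from the remaining lists.

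Internal gaps of these wide domains differed by 1766 bp in the mean, against 573 bp for the summed inset. Taking the border from the widest peak alone gave an inset difference of 4458 bp. Such an inset also counts the other pieces and the gaps between them, so it cannot be set against the internal gap. With the 7041 widest peaks of each list the differences were nearly equal, at 1336 bp for the gap and 1317 bp for the inset. The mean gap per domain was 820 bp in untreated replicate 1 and 3378 bp in tamoxifen replicate 1, and 1557 and 2531 bp in the replicate 2 lists. No untreated list reached a tamoxifen list. The group means were 1188 ± 521 and 2954 ± 599 bp (SD, n = 2 lists each, two-sided exact permutation p = 0.33; adjusted 0.583). The difference was positive in each alternative of processing and each omission of a list that was run, from 809.5 to 2042 bp. The median gap length was 783 and 884 bp in replicate 1, and 908 and 1052 bp in replicate 2. Domains in 2 or more pieces numbered 66 and 104 of the 112 in replicate 1 and 70 and 86 in replicate 2.

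Of the bases left uncovered in these wide domains, the internal share was 42.4% in untreated replicate 1 and 65.1% in tamoxifen replicate 1, and 53.0% and 58.0% in replicate 2. Over all 4841 domains it was 16.8% and 30.0% in replicate 1 and 24.6% and 22.4% in replicate 2 (group means 20.7% ± 5.56 and 26.2% ± 5.37, SD, n = 2 lists each, exact permutation p = 0.667). The difference of 5.54 percentage points was 0.829 without untreated replicate 1, 1.49 without tamoxifen replicate 1 and 9.58 without tamoxifen replicate 2. Regions were merged anew for each of these omissions. Bases missing in a typical narrow domain therefore lay mainly outside its outer borders, in untreated and tamoxifen lists alike. In wide domains they lay mainly between the borders in both tamoxifen lists and in untreated replicate 2.

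Regions in which both tamoxifen lists lay beyond both untreated lists were counted next. Over all domains the left border lay further in with tamoxifen in 932, which is 19.3%, and further in in untreated cells in 429, which is 8.86%. On the right the counts were 944 (19.5%) and 408 (8.43%). The internal gap was longer with tamoxifen in 386 (7.97%) and longer in untreated cells in 60 (1.24%), and pieces were more numerous in 243 (5.02%) and fewer in 25 (0.516%). Among the 112 widest domains the left border lay further in with tamoxifen in 29, or 25.9%, and in untreated cells in 4. The right border did so in 34, or 30.4%, and 8, and the gap was longer with tamoxifen in 45, or 40.2%, and in untreated cells in 1. The share with a longer gap with tamoxifen was 3.11%, 10.9% and 22.3% in domains of 2 to 5, 5 to 10 and 10 to 20 kb. Wider domains have more room for a gap, and none of the 371 domains under 2 kb was counted in either direction.

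Of the 386 domains with a longer gap in both tamoxifen lists, 113 also had a border further in, which is 29.3%, against 34.7% of all domains with such a border. A longer gap thus went with a border further in about as often as over all domains. Both borders lay further in with tamoxifen in 198 domains (4.09% of all) and further out in 40 (0.826%). For a single border the shares were 19.3% on the left and 19.5% on the right further in, and 8.86% and 8.43% further out. Across domains, a larger inward shift of the borders went with a smaller gain in gap (Pearson r = -0.287 in replicate 1 and -0.195 in replicate 2, over 4841 domains and as a description). The measures share their bases, because an outlying peak that extends a border also leaves a gap behind it.

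The profile along wide domains placed these differences. In the first 0.5 kb from the merged border, untreated lists covered 60.4% and 41.9% of the bases and tamoxifen lists 27.4% and 30.3%, in replicates 1 and 2. Between 2.5 and 3 kb the values were 94.9% and 88.5% untreated, and 81.2% and 83.5% with tamoxifen. Between 9.5 and 10 kb from the border, deep inside these domains, untreated lists covered 96.0% and 94.9% and tamoxifen lists 87.4% and 90.3%. The difference was therefore widest in the outermost bases and tamoxifen lists stayed below untreated ones in each of the 20 bins. Centres of gaps lay within 5 kb of a border for 19.2% of gaps in untreated replicate 1 and 52.0% in untreated replicate 2, against 37.4% and 38.2% in the tamoxifen lists, so the untreated lists did not share a pattern.

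**Figure D4:**
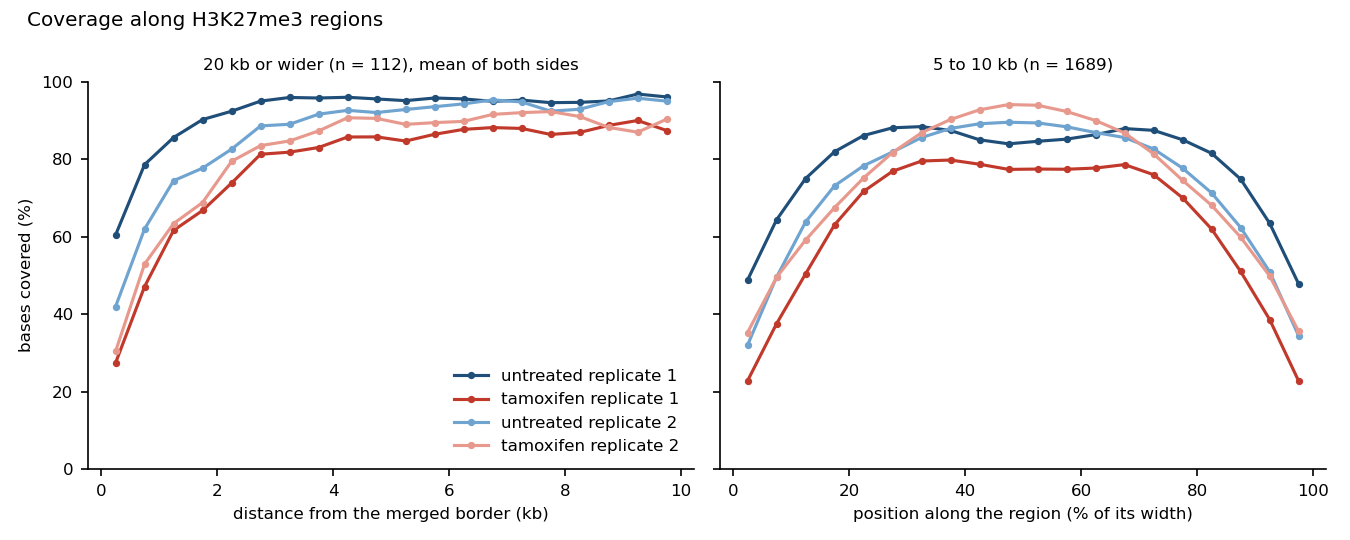
Percent of bases covered by each list (vertical axis), against distance from the merged border in bins of 0.5 kb for 112 regions of 20 kb or wider (left panel, mean of both sides) and against relative position for 1689 regions of 5 to 10 kb (right panel). In the wide regions both tamoxifen lists stay below both untreated lists from 27.4% and 30.3% at the border to 87.4% and 90.3% at 10 kb; in the narrower ones tamoxifen replicate 2 reaches 94.1% at the centre, above the other 3 lists.

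Domains of 5 to 10 kb had another profile. In the middle of the region, from 45% to 50% of its width, tamoxifen replicate 2 covered 94.1% and untreated replicate 2 89.5%, while tamoxifen replicate 1 covered 77.3% and untreated replicate 1 83.9%. At the left end, in the first 5%, tamoxifen covered 22.8% against 48.8% untreated in replicate 1, and 35.2% against 32.0% in replicate 2. Between these, from 15% to 20% of the width, the values were 63.0% and 81.9% in replicate 1 and 67.5% and 73.1% in replicate 2. In replicate 2 tamoxifen thus covered less on the flanks and more at the centre and the left end, and in replicate 1 less at all 3 places.

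Single bases were also compared, as lost when the untreated list covered them and the tamoxifen list did not, and as gained in the reverse case. In the replicate 1 lists 20.1% of the domain bases were lost and 5.48% gained, and in the replicate 2 lists 12.9% and 13.0%. Of the lost bases 67.9% in replicate 1 and 69.4% in replicate 2 lay outside the tamoxifen borders, and the rest were internal. Of the gained bases 83.8% and 68.1% lay outside the untreated borders, so a majority at the edges was common to losses and gains. In the widest domains 67.4% and 70.7% of lost bases were internal, and so were 44.4% and 71.9% of gained bases, so that in replicate 2 an internal majority was common to both. Lost internal stretches there had a median of 722 bp in replicate 1 and 866 bp in replicate 2, and the longest measured 3728 and 3609 bp.

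The replicates seldom lost the same bases. Of the bases lost in replicate 1, 16.5% were also lost in replicate 2, where 12.9% of all domain bases were lost, and 14.7% were gained in replicate 2, where 13.0% were gained. Stretches covered in both untreated lists and in neither tamoxifen list made up 0.946 Mb in all, and the reverse 0.275 Mb. Of the former, 0.546 Mb lay outside the borders of both tamoxifen lists and 0.174 Mb inside both. Of the reverse, 0.179 Mb lay outside the borders of both untreated lists and 0.0279 Mb inside both. In the widest domains the internal stretches lost in both replicates numbered 104, with a median of 436 bp. Their total was 0.0484 Mb, against 11 internal stretches of 0.00377 Mb in reverse. Shifts of the same domain in both replicates were close to unrelated, with a Pearson r over 4841 domains of 0.0365 for left borders, 0.0394 for right borders and 0.0939 for gaps.

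The widest domains show these patterns singly. The first 4, by width, lay on chromosomes 11, 15, 6 and 2, which are those that carry Hox gene clusters in the mouse. In the domain at chr11:96119727-96245840 the gap was 600 bp in 2 pieces in untreated replicate 1 and 8101 bp in 11 pieces in tamoxifen replicate 1. In replicate 2 it was 5926 and 8683 bp, in 6 pieces in both lists. Gaps lay towards both ends of the domain in the 3 lists with more than 2 pieces, around a single long piece in the middle.

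The domain at chr15:102751578-102873574 was the most continuous of these. Its gap was 0 and 593 bp in replicate 1, and 2261 and 3212 bp in replicate 2. At chr6:52109488-52228602 the gap was 2218 and 7151 bp in replicate 1, and 730 and 3451 bp in replicate 2. Its right inset was 0 and 1198 bp in replicate 1, and 693 and 1206 bp in replicate 2. Both tamoxifen lists thus ended at nearly the same place on the right.

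At chr2:74485081-74554429 untreated replicate 2 was a single piece with no gap, and tamoxifen replicate 2 was in 5 pieces with 4132 bp of gap. In replicate 1 the gap was 3367 and 4892 bp, in 5 and 6 pieces. The domain at chr7:77465937-77518021 had its left border 994 bp in with tamoxifen against 0 bp untreated in replicate 1, and 2040 against 585 bp in replicate 2. Its gap was 1127 and 2466 bp, and 873 and 4085 bp. Each of the 6 widest domains had the longer gap in the tamoxifen list of both replicates.

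**Figure D5:**
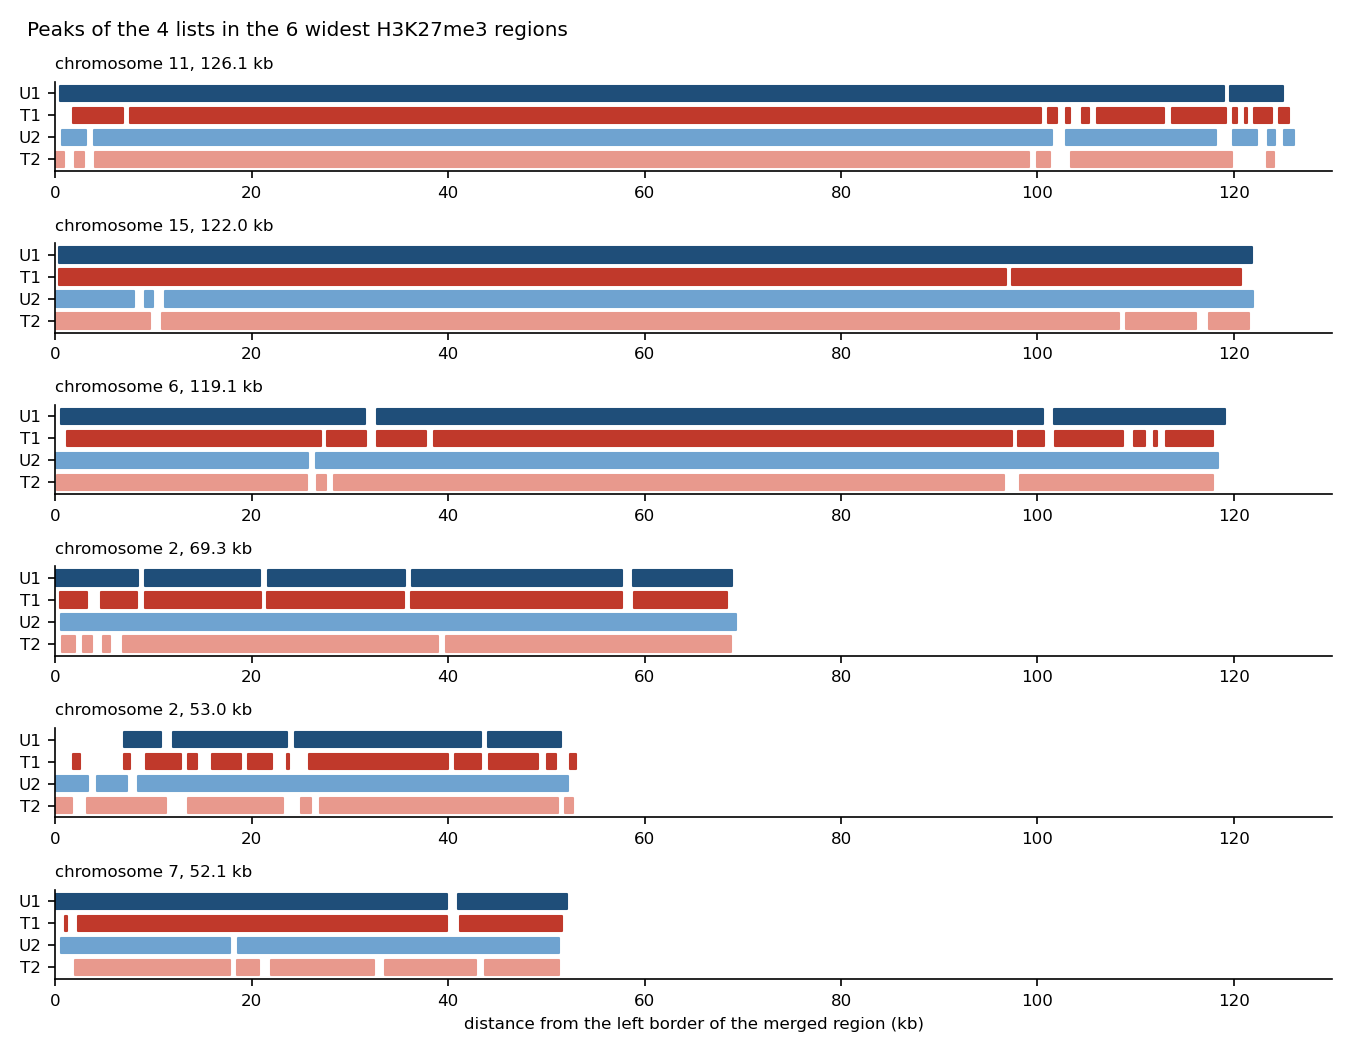
Peaks (bars) of the 4 lists in the 6 widest regions, against distance from the left border of the merged region in kb; U1, T1, U2 and T2 are untreated and tamoxifen replicates 1 and 2, and each panel names the chromosome and the width. Tamoxifen lists hold 11 and 6 pieces on chromosome 11 and 12 and 6 on chromosome 2 (53.1 kb), where untreated lists hold 2 and 6 and 4 and 3.

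Among domains whose treatments did not overlap, the largest gap difference was at chr2:33452720-33505770. It held 2776 bp of gap in 4 pieces in untreated replicate 1 and 16348 bp in 12 pieces in tamoxifen replicate 1, and 2028 bp in 3 pieces and 7234 bp in 6 pieces in replicate 2. Its left border went the other way, with an inset of 6975 bp in untreated replicate 1 against 1738 bp in tamoxifen replicate 1. In replicate 2 the left inset was 53 bp untreated and 0 bp with tamoxifen. This domain was thus more divided with tamoxifen in both replicates, while its left border moved far only in replicate 1. There the outermost tamoxifen peak lay from 1.738 to 2.457 kb, and the next began at 7.000 kb.

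The next 4 by the same rule lay at chr4:88915296-88956408, chr5:33793370-33820011, chr13:78302854-78352939 and chr1:19193475-19219748, and their mean gaps were 7490 to 8872 bp longer with tamoxifen. On chromosome 4 the gap was 1880 and 11206 bp in replicate 1, and 1866 and 10284 bp in replicate 2, the nearest match between replicates. On chromosome 5 it was 670 and 13869 bp in replicate 1, but 888 and 3871 bp in replicate 2. On chromosome 1, tamoxifen replicate 2 had a single gap of 10027 bp between 2 pieces, where untreated replicate 2 had 5411 bp between 5 pieces.

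Gaps longer in untreated cells were smaller. The largest such difference, on chromosome X at chrX:11652484-11673480, was -3601 bp, with 6583 and 5853 bp in replicate 1 and 7529 and 1058 bp in replicate 2. The difference rested on replicate 2 there. The other 4 by this rule differed by -2090 to -1652 bp.

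Of the 5 largest inward border shifts, 4 were in domains under 20 kb, where nearly all domains belong, since those of 20 kb or wider made up 2.31%. At chr14:80164534-80182175 the right inset was 0 and 3358 bp in replicate 1, and 128 and 6483 bp in replicate 2. At chr9:43262825-43269245 it was 0 and 4693 bp, and 839 and 4662 bp, so both tamoxifen lists ended at nearly the same place. There the tamoxifen lists kept 20.1% and 10.2% of the region, against 98.3% and 31.4% in the untreated ones. On the left the largest shift was at chr7:69586418-69609350, with insets of 0 and 6149 bp in replicate 1, and 1318 and 2480 bp in replicate 2. The other 2 of the largest 5 lay on chromosomes 12 and 8, with mean shifts of 3560 and 3406 bp. Each rested mostly on a single replicate. On chromosome 12 the right inset was 0 and 6885 bp in replicate 1, and 70 and 304 bp in replicate 2. On chromosome 8 the left inset was 0 and 1457 bp in replicate 1, and 834 and 6189 bp in replicate 2. Tamoxifen replicate 2 covered only 2.4% of that region.

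The largest outward border shifts with tamoxifen were smaller than the largest inward ones. At chr11:83254734-83261312 the right inset was 3737 and 1977 bp in replicate 1, and 4983 and 0 bp in replicate 2. At chr6:125297823-125304005 it was 4255 and 186 bp, and 2369 and 0 bp. The 5 largest outward shifts were -3372 to -2776 bp in the mean of both replicates, against 3406 to 4857 bp for the 5 largest inward ones. As these domains were chosen by their difference, the values describe them and carry no test.

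Chromosomes shared a direction in replicate 1, with sizes that differed widely, and were divided in replicate 2. The summed inset was larger with tamoxifen on each of 20 chromosomes in replicate 1, from 84.9 bp on chromosome 8 to 800 bp on chromosome X. In replicate 2 it was larger on 10 and smaller on 10, from -328 bp on chromosome X to 297 bp on chromosome 1. The mean gap was longer on 20 of 20 chromosomes in replicate 1 and on 7 of 20 in replicate 2. Chromosome X, with 73 domains, was thus the most contracted in replicate 1 and the most expanded in replicate 2.

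Last, the stretches uncovered with tamoxifen were set against H3K9me3, the mark that Setdb1 writes, in 4 lists of untreated cells. Of the 0.174 Mb of internal stretches lost in both replicates, 0%, 0%, 0.473% and 0.471% lay in an H3K9me3 peak of replicates 1 to 4. Of the edge stretches lost in both, 0.25%, 0.351%, 0.795% and 0.611% did, against 0.167%, 0.330%, 0.737% and 0.358% of all domain bases. Of the edge stretches gained in both, 0.0520%, 0.484%, 0.800% and 0.640% did. H3K9me3 was thus scarce in the domains. Its share was larger in lost than in gained edges for H3K9me3 replicate 1, smaller for replicate 2 and nearly equal for replicates 3 and 4. These shares rest on few bases, for H3K9me3 replicate 1 on 1365 bp of lost and 93 bp of gained edges. H3K9me3 replicate 4 has no antibody named in its labels and is in its group by title. Lists of H3K9me3 after tamoxifen were not analysed here.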

How the data were processed

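For each library the authors deposited a list of peaks as chromosome, start and end, a unit of other kind (positions in bp). Per the submitters' processing notes, tools were Bowtie 0.12.7 and MACS2 2.0.10 (replicate 1) or 2.1.0 (replicate 2) on mm9. Calling mode, threshold and control: not given in the sources used here. The mode, the depth and the distance over which peaks are joined all bear on borders and gaps. Groups came from titles, and unnumbered libraries were numbered 1. Touching peaks of the 4 lists were merged, a list held a region with at least 1 bp, and group means of the lists were tested by exact permutation, two-sided. Regions named were the 6 widest and the 5 with the largest difference in a border and in gap length, in each direction, among those whose treatments did not overlap. Members, measures and alternatives were chosen with earlier results of these data known. On simulated data the measuring code returned the borders, gaps and pieces of 4000 of 4000 planted regions. These were wider than most domains, with gaps shorter than any in the lists. Every list had a peak in each planted region, so the step that keeps domains was not put to the test. Software was Matplotlib 3.10.9, pandas 2.3.3, NumPy 2.4.6, SciPy 1.17.1 and Python 3.11.15. The 5 inputs have no list here and were not analysed.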

Additional observations from a re-analysis of the deposited data

Results flagged for a closer look

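Several values pointed one way in the replicate 1 lists and the other way in the replicate 2 lists, with 1 list per treatment in each, so the difference between replicates was not tested. Over all domains the tamoxifen minus untreated difference was 410 and -34.2 bp for the internal gap, 0.384 and -0.0428 for pieces per domain, and 13.3 and -2.19 percentage points for the internal share of uncovered bases, in replicates 1 and 2. By width, the summed inset differed by 219 and -42.8 bp in domains under 2 kb and by 424 and -61.5 bp in those of 2 to 5 kb. The gap differed by 179 and -48.0 bp from 2 to 5 kb, by 483 and -97.0 bp from 5 to 10 kb and by 1214 and -18.4 bp from 10 to 20 kb. Pieces per domain differed by 0.188 and -0.0477 from 2 to 5 kb and by 0.470 and -0.0959 from 5 to 10 kb. Replicate number and MACS2 version coincide here and cannot be told apart.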

How the results depend on the processing

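Of 132 alternatives of the 7 tested values, 121 kept the direction. Among these, closing 500 bp (no gap was that short), chromosomes 1 to 19 and X and the replicate block could not change a value. Closing gaps of up to 2 kb, chosen after seeing the data, reversed the left and right inset (-10.9 and -12.5 bp) and the inset of regions of 20 kb or wider (-783 bp). Regions from replicate 2 alone reversed the insets (-44.4 and -41.3 bp), gap (-22.9 bp), pieces (-0.0180) and internal share (-0.182 points). An equal number of widest peaks (7041 per list), also chosen after seeing the data, reversed the share (-2.54 points). The median over regions was 0 for gap and pieces. Several values moved over 1.5 times without reversing. Equal numbers of widest peaks gave 56.6 bp (gap), 0.0193 (pieces), 237 and 239 bp (left and right inset) and 1317 bp (wide inset). Merging regions over 1 kb gave 42.0 and 44.9 bp (insets), 18.6 bp (wide inset), 316 bp (gap), 0.261 (pieces) and 9.17 points (share). Dropping peaks under 500 bp gave 120.4 bp (gap), 0.0872 (pieces), 1.56 points (share) and 872 bp (wide inset). The border of the widest peak, which counts other pieces and gaps as inset, gave 241 and 267 bp (insets) and 4458 bp (wide inset). Closing 1 kb gave 0.0836 (pieces), 79.9 bp (right inset) and 350.3 bp (wide inset), and with narrow peaks dropped too 109 bp (gap), 0.0495 (pieces) and 2.89 points (share). Closing 2 kb gave 116 bp (gap), 0.0382 (pieces) and 959 bp (wide gap). Regions from replicate 1 alone gave 288 and 279 bp (insets), 962 bp (wide inset) and 12.7 points (share), and from replicate 2 alone 294 bp (wide inset) and 809.5 bp (wide gap). The wide gap had a median difference of 1109 bp. Without a list, over regions merged anew, differences were 63.4 to 209 bp (left), 55.2 to 198 bp (right) and 49.5 to 268 bp (gap). They were 0.0207 to 0.286 (pieces), 0.829 to 9.58 points (share), 475 to 911 bp (wide inset) and 1375 to 1992 bp (wide gap). A lone list has no spread of its own. The cause of these changes was not tested.

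Of 76 alternatives for counts, 28 moved one by over 1.5 times. Broken domains (1215 and 575 in replicates 1 and 2) numbered 744 in replicate 1 with peaks under 500 bp dropped, 732 with gaps of up to 1 kb closed, 479 and 263 with both, and 320 and 220 with 2 kb closed. Joined domains (149 and 767, or 3.08% and 15.8%) numbered 75 (1.60%) in replicate 1 with 1 kb closed. They numbered 81 and 372 (1.90% and 8.72%) with both, and 35 and 247 (0.770% and 5.43%) with 2 kb closed. Requiring 50% cover kept 2501 domains and gave 473 left and 536 right borders further in with tamoxifen and 240 and 216 in untreated cells, with gaps longer in 225 and 33 domains. As shares these are 18.9%, 21.4%, 9.60%, 8.64%, 9.0% and 1.32%, near those over all 4841. Equal numbers of peaks kept 3722 domains and gave 274 left (7.36%) and 262 right (7.04%) borders further in in untreated cells and 109 longer gaps with tamoxifen (2.93%). Longer gaps with tamoxifen and in untreated cells numbered 175 and 30 (3.74% and 0.641%) with 1 kb closed. They numbered 105 and 28 (2.46% and 0.66%) with both, and 72 and 13 (1.58% and 0.286%) with 2 kb closed. With tamoxifen they numbered 228 with narrow peaks dropped and 610 with regions merged over 1 kb.

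With the replicate number as a block, the smallest two-sided exact sign-flip p that 2 pairs allow is 0.5. Both insets (119 and 120 bp), the wide inset (573 bp) and the wide gap (1766 bp) had this p. For gap (188 bp), pieces (0.171) and internal share (5.54 points) it was 1. Same-numbered lists deviated together across domains (r = 0.348 left, 0.360 right, 0.129 gaps, 0.119 pieces), but the labels give them no shared origin.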
